A study of Mus musculus with 12 samples.

Results

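The genes described here are 10 genes of vascular growth signalling, namely the VEGF family ligands Vegfa, Vegfb, Vegfc and Pgf, the VEGF receptor Kdr, the angiopoietins Angpt1 and Angpt2, the peptide apelin (Apln) and its receptor (Aplnr), and the endothelial secreted proteoglycan Esm1. They were picked by symbol from 52858 genes in the files, by a rule that uses no measured value. All 10 passed the filter on low values and were among the 15240 genes tested. VEGF ligands bind tyrosine kinase receptors on endothelial cells and drive their survival, permeability and sprouting, and Kdr (VEGFR2) carries most of the growth signal. Angpt1 activates the Tie2 receptor and keeps vessels quiescent, whereas Angpt2 is released by activated endothelium and can oppose it. Apelin and its receptor act between neighbouring endothelial cells and, in the heart, also on contraction and vessel tone, and cardiomyocytes, endothelium and stroma are all known sources of ligands of these families.

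RNA sequencing was performed on 12 mouse heart libraries in 4 groups of 3. C57BL/6J hearts were perfused on a Langendorff apparatus either for 80 min without ischemia (C57-non-IR) or for 20 min, then without flow for 20 min (global ischemia) and again with flow for 40 min (reperfusion, C57-IR). Hearts of Slit2-Tg mice, which carry a full-length human Slit2 cDNA behind the CMV promoter and were made in C57 × CBA F1 oocytes, received the same protocols (Slit2-non-IR and Slit2-IR). The donors were males 3 to 5 months of age. The CMV promoter is not specific to a cell type, and all hearts, controls included, were isolated and perfused with buffer rather than blood. The sample labels state the genotype in words, and ischemic or control perfusion was taken from the letters in the sample titles, matched to the group names of the study. No source states from which animal each library came, so p-values measure the spread between these libraries.

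Between 16601154 and 24841291 reads lay on genes per library, and mitochondrial genes took 19.7% to 26.0% of them. The 7 ventricular cardiomyocyte markers (Myh6, Tnnt2, Myl2 and others) summed to between 14446 and 22148 FPKM, as the heart label requires. Slit2-IR replicate 1 stood apart with a summed level of 8 atrial markers of 1720 FPKM, against at most 233 FPKM elsewhere. The 12 endothelial identity markers (Pecam1, Cdh5 and others), all detected, summed to between 241 and 424 FPKM. The 3 lowest sums, 251, 244 and 241 FPKM, belonged to replicate 1 of the Slit2-non-IR, Slit2-IR and C57-IR groups, whereas replicate 1 of C57-non-IR held 417 FPKM. In RNA from whole tissue, fewer cells of a type and less RNA per cell cannot be told apart. The mouse Slit2 row lay between 0.180 and 0.282 FPKM in C57BL/6J libraries and between 0.0847 and 0.813 FPKM in Slit2-Tg libraries, but a human cDNA need not be counted there, so the row does not check the genotype.

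The ligands and the receptor differed widely in abundance. FPKM is normalized for gene length, so levels can be ordered between genes. Averaged over the 12 libraries, Vegfb, a ligand of Flt1 linked to fatty acid handling in muscle, stood highest at 158 ± 22.0 FPKM (SD, n = 12), ahead of Vegfa at 70.8 ± 16.8 FPKM and Kdr at 26.8 ± 5.57 FPKM. Each of these lay above the next gene in all 12 libraries. Aplnr (6.17 ± 2.48 FPKM), Angpt1 (5.15 ± 2.04 FPKM), Pgf (4.97 ± 2.07 FPKM) and Apln (4.66 ± 1.42 FPKM) formed a middle group whose order was not kept. Aplnr exceeded Angpt1 in 7 of 12 libraries, Angpt1 exceeded Pgf in 8, and Pgf exceeded Apln in 6. Apln lay above Vegfc (3.17 ± 0.566 FPKM), the lymphatic growth factor, in 11 libraries. Angpt2 (1.44 ± 0.541 FPKM) and Esm1 (0.738 ± 0.326 FPKM) were lowest, below Vegfc and in that order in all 12. Esm1 rested on 10 to 68 reads per library and Angpt2 on 55 to 193, whereas Vegfa rested on 3711 to 9000. Among the tested genes, Vegfb was at the 98.2 percentile of mean FPKM, Vegfa at 96.1, Kdr at 90.8 and Esm1 at 22.0. Vegfb varied least, with a ratio of 1.48 between its highest and lowest library, and Esm1 most, with a ratio of 6.98.

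**Figure D1:**
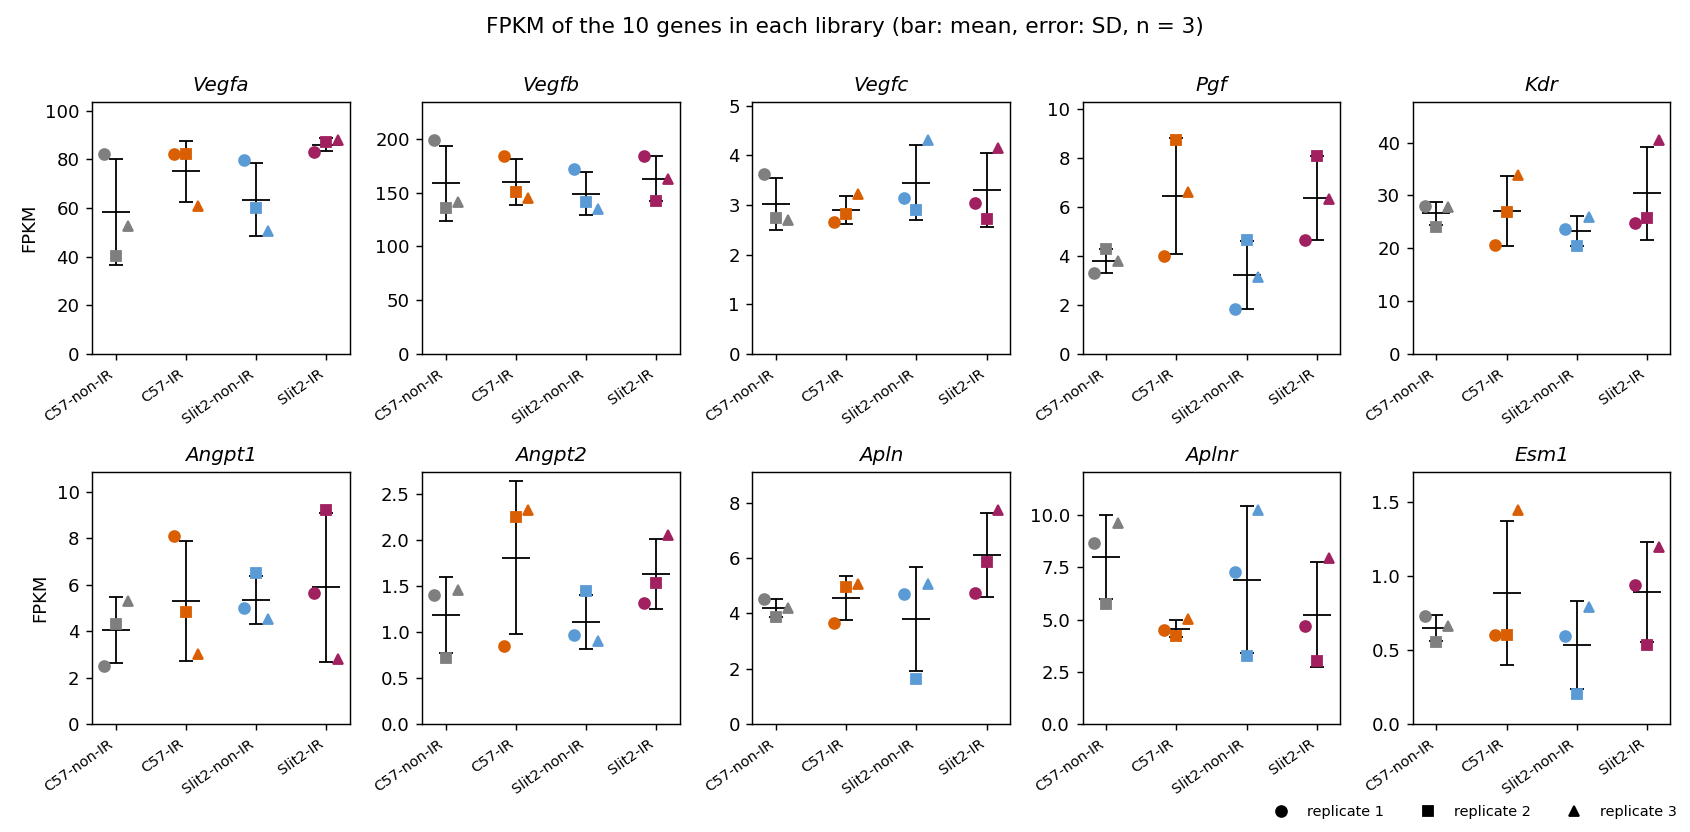
FPKM of each gene (vertical axis, from 0) in the 12 libraries by group, with marker shapes for the replicate numbers of the labels, a bar for the mean and error bars for the SD (n = 3). Pgf values of Slit2-IR hearts lie above all Slit2-non-IR values, Aplnr values of C57-IR hearts lie below all C57-non-IR values, and most other genes overlap between groups.

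In the GRCm38 coordinates of the files, Vegfa lies on chromosome 17 (46016993 to 46032369, minus strand), Vegfb on chromosome 19 (6982473 to 6987651), Vegfc on chromosome 8 (54077606 to 54187096), Pgf on chromosome 12 (85166635 to 85177790) and Kdr on chromosome 5 (75932827 to 75978458). Angpt1 lies on chromosome 15 (42424727 to 42676977), Angpt2 on chromosome 8 (18690263 to 18741562), Apln on chromosome X (48025146 to 48034853), Aplnr on chromosome 2 (85136225 to 85139923) and Esm1 on chromosome 13 (113209659 to 113218098). All 10 are annotated as protein coding. Angpt2 overlaps Mcph1 and Esm1 overlaps Gzmk on opposite strands without sharing exon bases in the GENCODE annotation of that build. In that annotation Angpt1 shares 737 of its 5205 exon bases (14.2%) with the antisense gene Gm17473. The files give Angpt1 a different start coordinate and a length of 4256 bases, so how many shared bases were counted is not known. The use of strand in counting is not given in the sources used here either, so the values of Angpt1 are uncertain.

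RefSeq promoter windows of 250 bases before an annotated start (GRCm38.p6) were found for 7 of the 10 genes, 9 windows in all; Angpt1, Angpt2 and Aplnr had no entry. Windows were searched on both strands for the core of the hypoxia response element (ACGTG), the AP-1 site of immediate early factors (TGANTCA), the cAMP response element (TGACGTCA) and the GC box of Sp1 (GGGCGG). The 2 windows below belong to ligands that had an unadjusted p under 0.05 in an IR comparison and lie outside the exons of their gene, and capitals mark GC boxes, the only one of the 4 motifs found in them.
Vegfa, chr17:46032378-46032627, minus strand: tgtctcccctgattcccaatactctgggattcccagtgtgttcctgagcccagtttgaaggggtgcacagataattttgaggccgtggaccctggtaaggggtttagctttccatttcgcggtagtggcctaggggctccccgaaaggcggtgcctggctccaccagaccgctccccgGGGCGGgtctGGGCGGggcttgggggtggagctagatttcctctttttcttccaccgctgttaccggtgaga
Apln, chrX:48034854-48035103, minus strand: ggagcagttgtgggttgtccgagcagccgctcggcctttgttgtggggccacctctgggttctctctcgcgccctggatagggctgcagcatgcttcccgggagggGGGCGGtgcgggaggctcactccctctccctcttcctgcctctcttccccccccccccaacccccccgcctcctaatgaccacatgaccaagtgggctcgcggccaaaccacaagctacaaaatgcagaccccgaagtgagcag
A GC box was present in 7 of the 9 windows, against 32.7% of all 32851 windows. ACGTG was present in 1 of 9, against 16.6% of all windows, in the window of a second Vegfa start, where the match (chromosome 17, 46025370 to 46025374) falls in coding sequence. AP-1 sites and cAMP response elements were present in 0 of 9, against 6.75% and 1.55% of all windows. These are matches of letters in short windows only.

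The first question was whether IR changed these genes. With limma and Benjamini-Hochberg adjustment over all tested genes, 0 of 10 genes had an adjusted p under 0.05 in C57BL/6J hearts (0.459% of tested genes did), 0 of 10 in Slit2-Tg hearts (0.525% of tested genes) and 0 of 10 when IR was averaged over the genotypes (3.49% of tested genes). At an unadjusted p under 0.05, 0 genes were called in C57BL/6J hearts (background 8.96%), 2 in Slit2-Tg hearts, Pgf and Apln (background 11.2%), and 2 in the average, Pgf and Vegfa (background 15.9%). limma-voom on the reads recovered from the FPKM values called the same counts, 0 adjusted in each comparison and 0, 2 and 2 unadjusted. The unadjusted count in C57BL/6J hearts depended on the libraries fitted. With only the 6 C57BL/6J libraries in limma it was 2, Aplnr and Pgf, beside 655 tested genes higher and 598 lower. With only the 6 Slit2-Tg libraries it was 2, Pgf and Vegfa, beside 907 higher and 758 lower. Both fits called 0 of the 10 genes adjusted. Averaged over genotypes, 8 of 10 differences were above 0, with a median of 0.20 on the log2(FPKM + 1) scale, beside 51.3% of tested genes above 0 and a median of 0.0036. Rescaling to reads outside the mitochondrial genome left 7 of 10 above 0, with a median of 0.14, and turned Vegfb below 0. Under that scaling the median over all tested genes was -0.0544, with 759 higher and 2169 lower at an unadjusted p under 0.05.

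Pgf, a ligand of Flt1 that is produced in low amounts in resting adult tissue, showed the difference with the smallest p-value of the 10 genes. In C57-non-IR hearts it was at 3.32, 4.29 and 3.82 FPKM (replicates 1 to 3), and in C57-IR hearts at 4.01, 8.75 and 6.62 FPKM. In Slit2-non-IR hearts it was at 1.86, 4.64 and 3.16 FPKM, and in Slit2-IR hearts at 4.68, 8.10 and 6.34 FPKM. The Slit2-IR values lay above all Slit2-non-IR values, while in C57BL/6J hearts replicate 1 of the IR group fell inside the non-IR range. Group means were 3.81 ± 0.488 and 6.46 ± 2.37 FPKM in C57BL/6J hearts, a ratio of 1.69, and 3.22 ± 1.39 and 6.37 ± 1.71 FPKM in Slit2-Tg hearts, a ratio of 1.98 (SD, n = 3). Averaged over genotypes the log2 difference was 0.71 (standard error 0.20, limma adjusted p = 0.0825, unadjusted p = 0.00433). It was 0.83 in Slit2-Tg hearts (95% interval 0.22 to 1.45, limma adjusted p = 0.257) and 0.59 in C57BL/6J hearts (-0.03 to 1.20, limma adjusted p = 0.596). When all 12 libraries were paired by replicate number as a block, the limma adjusted p in Slit2-Tg hearts was 0.0205. That fit included the C57BL/6J libraries, which the numbers could not be shown to pair. When only the 6 Slit2-Tg libraries were fitted with the block, the limma adjusted p was 0.0645. The block over all 12 libraries raised the count of genes at an unadjusted p under 0.05 in Slit2-Tg hearts from 2 to 5. The genes added were Vegfa, Kdr and Esm1. Over all tested genes the block gave 1196 higher and 898 lower, against 937 and 772 without it. With the block in only the 6 Slit2-Tg libraries the count was also 5 (Aplnr, Esm1, Kdr, Pgf and Vegfa). That fit gave 1318 tested genes higher and 972 lower. Without single libraries, the averaged difference of Pgf was between 0.58 (without Slit2-non-IR replicate 1) and 0.84 (without C57-IR replicate 1, one of the libraries low in endothelial markers). Its limma adjusted p was 0.0273 without the latter and reached 0.197 without C57-IR replicate 2. The Slit2-Tg difference fell to 0.58 without Slit2-non-IR replicate 1 (limma unadjusted p = 0.0613), its unadjusted p also exceeded 0.05 without Slit2-IR replicate 2, and the C57BL/6J difference was 0.37 without C57-IR replicate 2.

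Vegfa, the principal angiogenic ligand and a known target of hypoxia-inducible factors, was at 82.3, 40.1 and 52.7 FPKM in C57-non-IR hearts and at 82.3, 82.4 and 60.7 FPKM in C57-IR hearts. Slit2-non-IR hearts had 79.9, 59.9 and 50.7 FPKM, and Slit2-IR hearts 83.1, 87.2 and 87.9 FPKM. The 3 Slit2-IR values were close together and above every other library, so they overlapped neither Slit2-non-IR nor C57-IR values, whereas the C57BL/6J groups overlapped. The averaged IR difference was 0.43 (95% interval 0.06 to 0.80), a ratio of mean FPKM of 1.32, with a limma adjusted p of 0.224 and an unadjusted p of 0.0260. The unadjusted p was above 0.05 without any one of C57-non-IR replicates 2 or 3, C57-IR replicates 1 or 2, or Slit2-non-IR replicate 3, and reached 0.0662 in limma. In C57BL/6J hearts the difference was 0.41 with all libraries, 0.17 without C57-non-IR replicate 2 and 0.68 without C57-non-IR replicate 1. Groups without overlap were found for 2 of 10 genes in Slit2-Tg hearts after IR, Vegfa and Pgf, both higher, against 16.9% of tested genes in either direction and 8.65% higher. In C57BL/6J hearts 1 of 10 genes, Aplnr, did not overlap, against 13.8% of tested genes in either direction and 7.01% lower.

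Aplnr, the G protein-coupled receptor of apelin, had the lowest averaged IR difference of the 10 genes, -0.49 (95% interval -1.03 to 0.06, limma adjusted p = 0.383), and Vegfc was the other gene below 0. Its FPKM was 8.65, 5.72 and 9.59 in C57-non-IR hearts and 4.49, 4.21 and 5.004 in C57-IR hearts. In Slit2-non-IR hearts it was 7.25, 3.23 and 10.2, and in Slit2-IR hearts 4.70, 3.03 and 7.96. All 3 C57-IR libraries were below all 3 C57-non-IR libraries, and the Slit2-Tg groups overlapped. Its log2 difference was -0.67 (95% interval -1.44 to 0.10, limma adjusted p = 0.663) in C57BL/6J hearts and -0.31 (-1.08 to 0.46, limma adjusted p = 0.837) in Slit2-Tg hearts. When single Slit2-non-IR libraries were left out, the Slit2-Tg difference was -0.70 without replicate 2 and -0.0011 without replicate 3. The unadjusted p of this difference was under 0.05 in 2 of 21 alternatives. These were the replicate block within the 6 Slit2-Tg libraries and the fit without Slit2-non-IR replicate 2. Apln itself was between 3.88 and 4.53 FPKM in C57-non-IR hearts, between 3.66 and 5.06 FPKM in C57-IR hearts, and at 4.74, 5.86 and 7.72 FPKM in Slit2-IR hearts. Slit2-non-IR hearts had 4.68, 1.64 and 5.04 FPKM, so that replicate 2 was the lowest of all 12. The IR difference of Apln in Slit2-Tg hearts was 0.64 (95% interval 0.04 to 1.25, limma adjusted p = 0.404, unadjusted p = 0.0398) and became 0.26 without that replicate (unadjusted p = 0.175 in limma). Its unadjusted p was under 0.05 in 13 of 21 alternatives and above it, among others, after rescaling to non-mitochondrial reads and without Slit2-IR replicate 2 or 3 or C57-non-IR replicate 1 or 3. The interaction of genotype and IR was 0.56 for Apln (95% interval -0.30 to 1.41, limma adjusted p = 0.9998), so the IR differences of the genotypes were not shown to differ.

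Libraries with the same replicate number tended to deviate together, and Pgf and Aplnr followed this throughout. Pgf was lowest in replicate 1 and highest in replicate 2 of all 4 groups, and Aplnr was lowest in replicate 2 and highest in replicate 3 of all 4 groups. The same order of replicate numbers in all 4 groups was found for 2 of 10 genes, Pgf and Aplnr, and for 1.98% of tested genes. The labels do not say what a number shares. Compared by number, Pgf and Vegfa were higher with IR in 6 of 6 pairs (6.78% of tested genes were) and Aplnr was lower in 6 of 6 (5.67% of tested genes), although in C57BL/6J hearts the numbers could not be shown to pair the libraries. Where groups did not overlap, any numbering gives the same direction. This holds for Pgf and Vegfa in Slit2-Tg hearts and for Aplnr in C57BL/6J hearts.

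The angiopoietins overlapped between all groups. Angpt2 was at 1.40, 0.716 and 1.46 FPKM in C57-non-IR hearts, 0.854, 2.25 and 2.33 FPKM in C57-IR hearts, 0.967, 1.45 and 0.910 FPKM in Slit2-non-IR hearts and 1.32, 1.53 and 2.05 FPKM in Slit2-IR hearts. Values after IR were mostly higher, and 0 of the 4 pairwise comparisons separated the groups. The averaged IR difference was 0.33 (95% interval -0.02 to 0.68, limma adjusted p = 0.362), from a mean of 1.15 FPKM to 1.72 FPKM, and it was 0.59 with limma-voom, which adds no pseudocount of 1 FPKM. C57-IR replicate 1, the low value of its group, was also the library with the lowest endothelial marker sum. Angpt1, made mainly by perivascular cells, ranged from 2.51 to 9.21 FPKM with all groups overlapping, and its averaged IR difference was 0.15 (95% interval -0.42 to 0.73). The ratio of Angpt2 to Angpt1 was 0.333 ± 0.202 in C57-non-IR hearts, 0.448 ± 0.333 in C57-IR hearts, 0.205 ± 0.0148 in Slit2-non-IR hearts and 0.377 ± 0.308 in Slit2-IR hearts (SD, n = 3). Its log2 IR difference of 0.38 had an exact permutation p of 0.500 (two-sided, labels exchanged within genotype, smallest possible p = 0.005, adjusted p = 0.611 over 12 tests).

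The remaining genes did not differ beyond their spread. Kdr ranged from 20.4 to 40.5 FPKM and its averaged IR difference was 0.17 (95% interval -0.15 to 0.48, limma adjusted p = 0.658), and 0.06 without Slit2-IR replicate 3, its highest library. Vegfb ranged from 134 to 199 FPKM with a difference of 0.08 (-0.18 to 0.34), and Vegfc from 2.67 to 4.31 FPKM with a difference of -0.05 (-0.29 to 0.20). Esm1, a tip cell product that VEGF induces in cultured endothelium, ranged from 0.207 to 1.44 FPKM with a difference of 0.24 (-0.06 to 0.53, limma adjusted p = 0.452). The Esm1 difference was 0.60 with limma-voom, outside this interval, since log2(FPKM + 1) compresses low values, and 0.13 without C57-IR replicate 3. Equality was not shown for any of these genes.

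**Figure D2:**
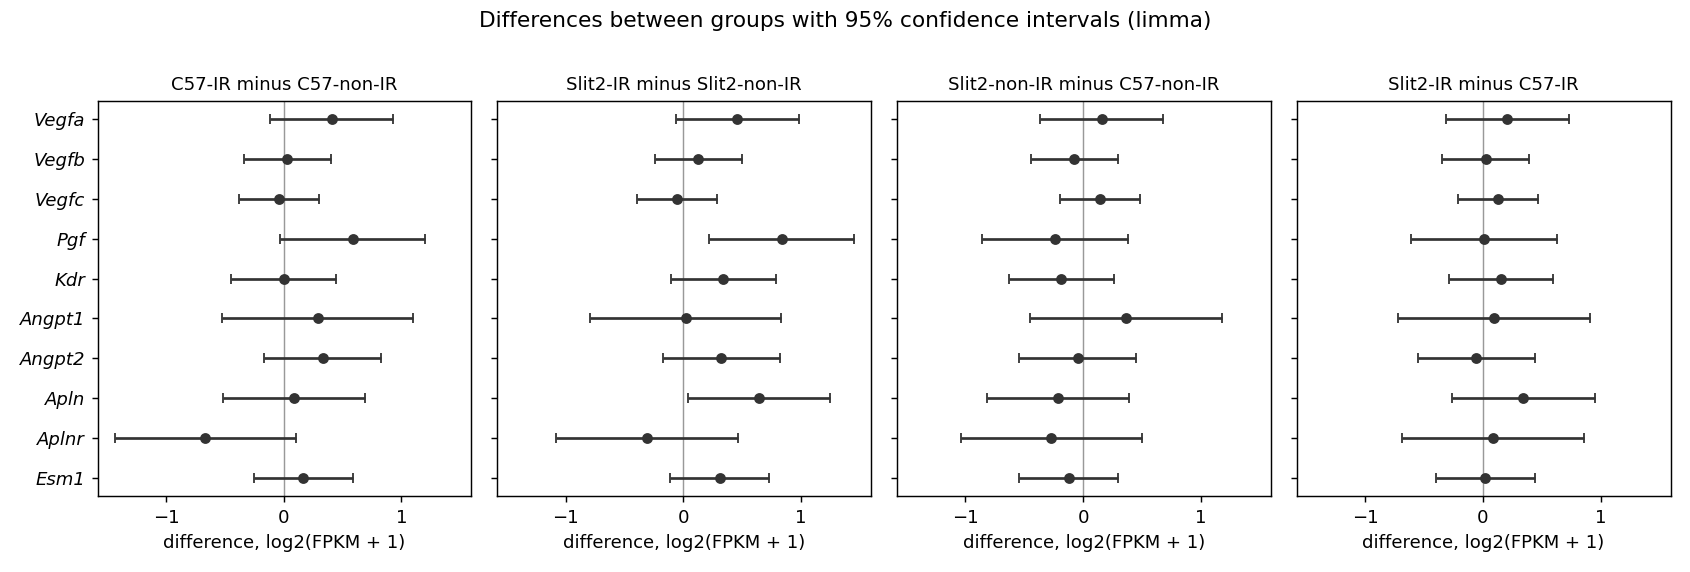
Differences on the log2(FPKM + 1) scale (horizontal axis) with 95% confidence intervals from limma for each gene in the 4 pairwise comparisons, 3 libraries a group. The intervals of Pgf (0.22 to 1.45) and Apln (0.04 to 1.25) in Slit2-Tg hearts after IR are the ones that leave out 0, before adjustment for the number of genes tested.

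The second question was whether the Slit2 transgene changed these genes. At an adjusted p under 0.05, limma called 0 of 10 genes without IR (0.0394% of tested genes), 0 of 10 after IR (0.0459%), 0 of 10 averaged over IR (0.131%) and 0 of 10 for the interaction (0% of tested genes). At an unadjusted p under 0.05 the count was also 0 of 10 in each, against 3.19%, 3.16%, 4.13% and 1.86% of tested genes. With limma-voom, 0 were called adjusted and 0 unadjusted in each. Among the alternatives, Apln after IR had an unadjusted limma p of 0.0215 with the block within the 6 IR libraries. That fit gave 343 tested genes higher and 348 lower. Vegfa averaged over IR had an unadjusted limma p of 0.0383 without C57-non-IR replicate 1, beside 261 tested genes higher and 274 lower. Both fits called 0 of the 10 genes adjusted. Groups without overlap were found for 0 of 10 genes without IR (9.2% of tested genes) and for 1 of 10 after IR, Vegfa, higher in Slit2-IR (6.47% of tested genes in either direction, 3.03% higher). Mean Vegfa was 75.1 ± 12.5 FPKM in C57-IR hearts and 86.1 ± 2.58 FPKM in Slit2-IR hearts (SD, n = 3). The log2 difference was 0.21 (95% interval -0.32 to 0.73, limma adjusted p = 0.9996), and 0.06 without C57-IR replicate 3. Pgf after IR differed between the genotypes by 0.01 (-0.61 to 0.63), Aplnr by 0.09 (-0.68 to 0.86), Kdr by 0.15 (-0.29 to 0.60) and Apln by 0.34 (-0.26 to 0.95). Averaged over IR, the widest interval was that of Angpt1, -0.35 to 0.80, and the narrowest that of Vegfc, -0.10 to 0.38. The tests therefore leave room for genotype differences of about this size.

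Most of the receptors and several ligands are products of endothelial cells, so 5 genes were also expressed relative to the mean log2(FPKM + 1) of the 12 endothelial markers of the same library. Of these markers, 0 were called between genotypes or with IR at an adjusted p under 0.05 in limma, with 0 at an unadjusted p under 0.05 between genotypes averaged over IR and 4 with IR, 2 in each direction. All 12 were lower in Slit2-Tg hearts when averaged over IR, with a median of -0.16, and all 12 also were after rescaling to non-mitochondrial reads, which gave 1 marker called lower with IR. Relative to the markers, the IR difference was 0.31 for Angpt2 (exact permutation p = 0.055), 0.35 for Apln (p = 0.140), -0.50 for Aplnr (p = 0.150), 0.22 for Esm1 (p = 0.285) and 0.15 for Kdr (p = 0.315), and the adjusted p over the 12 tests was 0.600 for the first 3 and 0.611 for the others. The differences between genotypes were between 0.08 and 0.24, with exact permutation p-values from 0.300 to 0.815. The IR differences of these 5 genes had the same sign with and without the endothelial reference, whereas the genotype differences of Kdr (-0.02 without it and 0.15 with it), Angpt2 (-0.05 and 0.12), Aplnr (-0.09 and 0.08) and Esm1 (-0.05 and 0.12) changed sign, and that of Apln (0.07 and 0.24) did not. None of the 12 tests passed the threshold. The smallest possible p of each was 0.005, so 1 test alone at that value could not pass after adjustment over 12 tests.

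**Figure D3:**
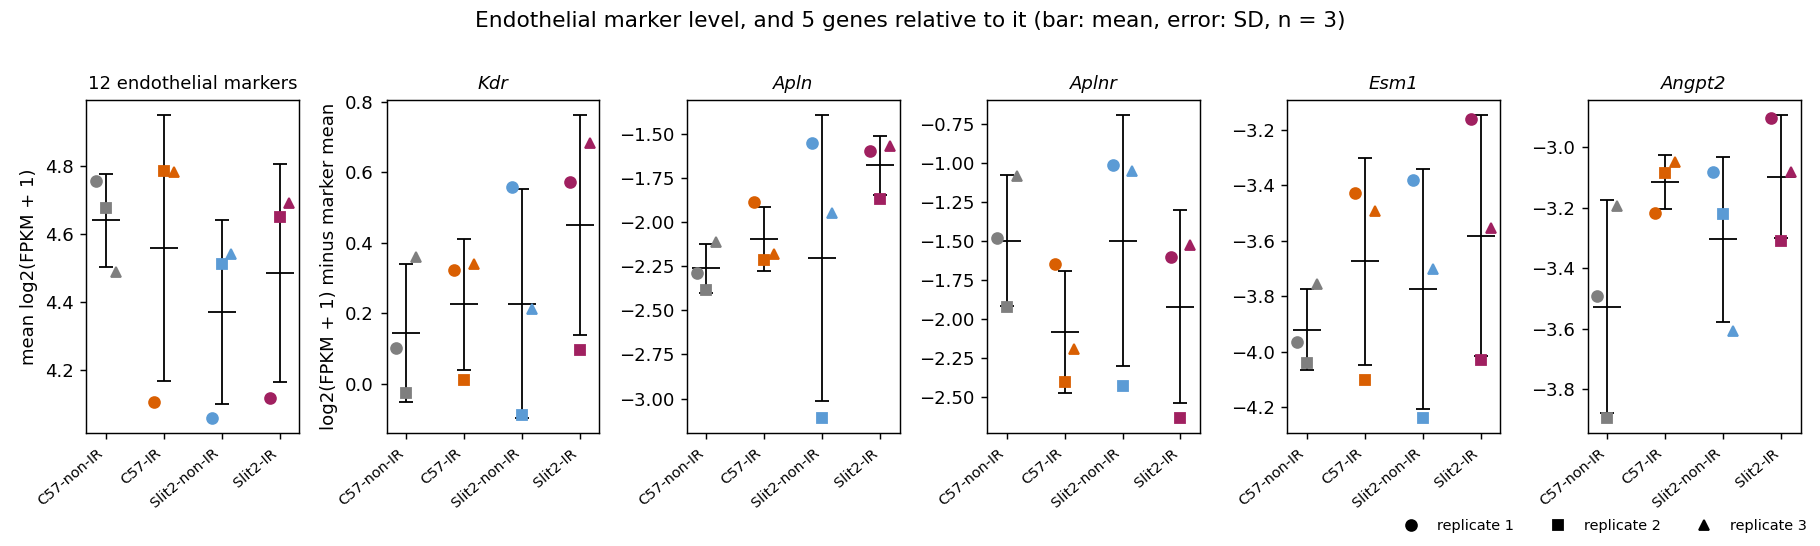
Mean log2(FPKM + 1) of the 12 endothelial markers (left panel) and, in the other panels, log2(FPKM + 1) of 5 genes minus that mean, for the 12 libraries by group, with bars for the mean and error bars for the SD (n = 3). Replicate 1 is lowest for the markers in Slit2-non-IR, Slit2-IR and C57-IR hearts, and Slit2-non-IR replicate 2 is lowest of all libraries for Apln (-3.11) and Esm1 (-4.24).

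Genes of the same pathways were described by lists. Among VEGF ligands, receptors and co-receptors other than the 10 genes (Flt1, Flt4, Nrp1, Nrp2 and Vegfd), 0 of 5 tested genes were called with IR averaged over genotypes in limma, with 0 at an unadjusted p under 0.05. The Tie receptors and other angiopoietin genes gave 0 of 7, with 1 unadjusted and lower. Other genes of the apelin pathway, such as the arrestin gene Arrb1, gave 0 of 6, with 1 higher and 2 lower unadjusted, and endothelial Notch and tip cell genes 0 of 12, with 2 higher unadjusted. Of the receptors of these ligands, named for their role, Flt1, which binds Pgf and Vegfb, was at 22.7 ± 3.01 FPKM in C57-non-IR and 19.0 ± 3.83 FPKM in C57-IR hearts, and at 18.9 ± 4.04 and 17.3 ± 4.18 FPKM in Slit2-non-IR and Slit2-IR hearts (SD, n = 3). Tek, which encodes Tie2, was at 16.4 ± 0.176 FPKM in C57-non-IR and 15.5 ± 2.07 FPKM in C57-IR hearts, and at 16.96 ± 2.17 and 14.4 ± 1.79 FPKM in the corresponding Slit2-Tg groups. In the comparisons between genotypes and the interaction, 0 genes of these 4 lists had an adjusted p under 0.05 in limma, with between 0 and 2 per list at an unadjusted p under 0.05.

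By contrast, most of the listed early response genes that VEGF is known to induce in cultured endothelium rose with IR. Of 12 tested, 8 were higher and 0 lower at an adjusted p under 0.05 in limma when averaged over genotypes, with a median log2 difference of 1.45, beside 2.34% of all tested genes higher and a median of 0.0036 over all genes. The same 8 and 0 were counted after rescaling to non-mitochondrial reads. Within genotypes 4 rose in C57BL/6J and 5 in Slit2-Tg hearts (3 and 4 after rescaling), and between genotypes 0 were called, adjusted or unadjusted. Nr4a3, an orphan nuclear receptor, rose from 0.828 ± 0.174 to 22.8 ± 12.9 FPKM in C57BL/6J hearts and from 0.666 ± 0.0970 to 24.9 ± 10.4 FPKM in Slit2-Tg hearts (SD, n = 3), an averaged log2 difference of 3.72 (limma adjusted p = 5.7e-05). Its relative Nr4a2 rose by 1.995 (limma adjusted p = 0.00151), the urokinase receptor Plaur by 2.41 (limma adjusted p = 0.000844) and the MAP kinase phosphatase Dusp5 by 1.37 (limma adjusted p = 0.00199). The list was drawn up with results of these data known and is not independent evidence. Its genes also respond to many stimuli other than VEGF and in cells other than endothelium, and no receptor activity was measured.

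Among 17 hypoxia-inducible factors, their hydroxylases and targets, 1 was higher and 0 lower with IR at an adjusted p under 0.05 in limma, with 4 higher and 4 lower unadjusted and a median of 0.07. The gene that rose was Slc2a1, the glucose transporter GLUT1, with a log2 difference of 0.58 (standard error 0.13, limma adjusted p = 0.0319). After rescaling to non-mitochondrial reads its adjusted p was 0.0511, and 2 others, Epas1 and Bnip3, named after their values were seen, were lower (limma adjusted p = 0.0382 and 0.0422), so the list had no direction that held under both scalings. Between genotypes 0 of the 17 were called.

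**Figure D4:**
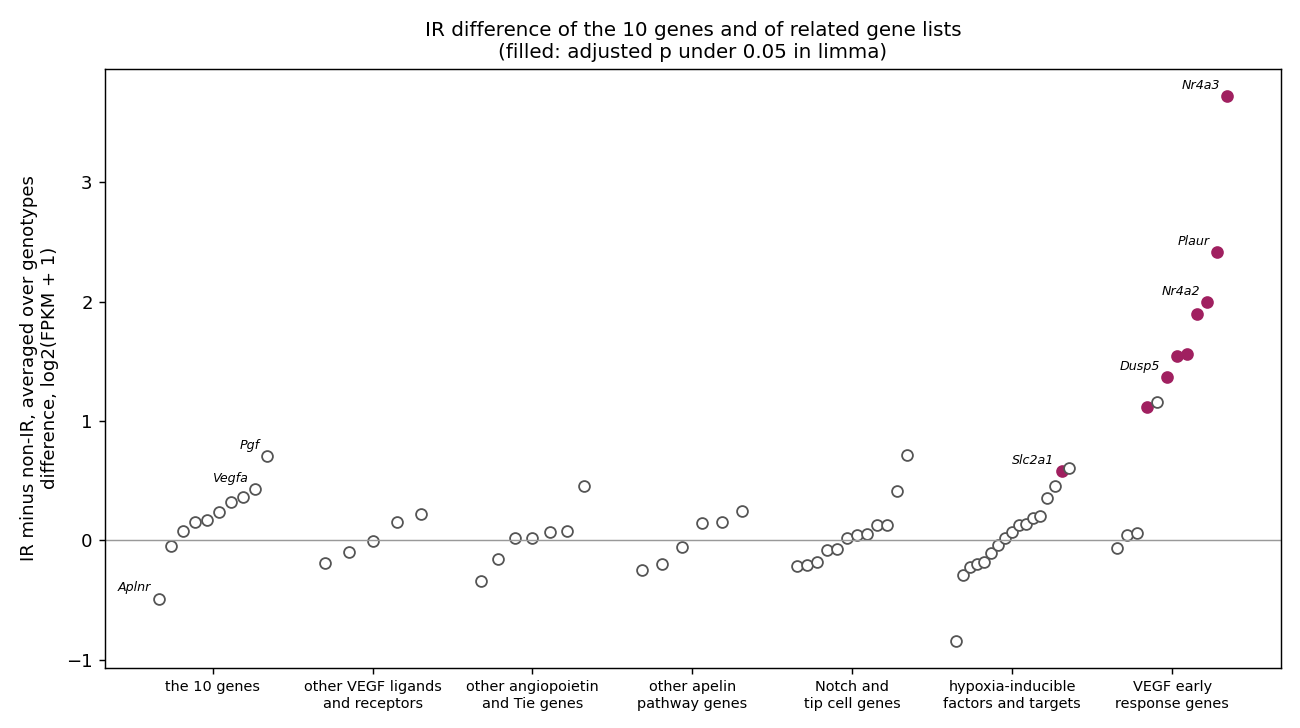
IR differences averaged over genotypes on the log2(FPKM + 1) scale (vertical axis), 1 point per gene, for the 10 genes and 6 related lists, with filled points at an adjusted p under 0.05 in limma. The 10 genes lie between -0.49 (Aplnr) and 0.71 (Pgf), all unfilled, while 8 early response genes are filled and reach 3.72 (Nr4a3).

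Marker levels of other cell types were also compared between IR and non-IR hearts. The summed level of 6 mesothelial markers was 2.19 to 4.54 FPKM in C57-non-IR, 6.18 to 7.39 FPKM in C57-IR, 0.948 to 4.61 FPKM in Slit2-non-IR and 3.28 to 7.22 FPKM in Slit2-IR hearts, with 2 of 6 markers higher at an adjusted p under 0.05 in limma. That of 7 blood cell markers was 8.44 to 17.3, 1.47 to 6.92, 4.53 to 49.3 and 1.99 to 13.2 FPKM in the same order, with 0 of 4 tested markers called and 2 lower at an unadjusted p under 0.05. The summed level of 8 atrial markers was 20.01 to 87.0 FPKM in C57-non-IR and 85.8 to 233 FPKM in C57-IR hearts, and 40.1 to 106 FPKM in Slit2-non-IR and 67.5 to 1720 FPKM in Slit2-IR hearts. All 6 tested atrial markers were above 0 with IR in each genotype, with an averaged median of 1.46, and 0 were called by limma, adjusted or unadjusted. Adipocyte markers summed to at most 0.847 FPKM in C57-non-IR hearts and to 0.105, 14.1 and 17.2 FPKM in C57-IR hearts, with 4 of 5 tested markers higher at an unadjusted p under 0.05 in limma and 0 adjusted, whereas in Slit2-Tg hearts 0 of 5 were called either way. Lung markers lay above 5 FPKM in 5 libraries, replicates 2 and 3 of both C57BL/6J groups and Slit2-non-IR replicate 2, and at most at 0.173 FPKM in the others. Of 6 fibroblast markers, 2 were higher at an unadjusted p under 0.05 when averaged over genotypes and 0 adjusted. No marker list was at 0, and the part of these cells in the differences of Pgf, Vegfa and Aplnr was not tested. Without Slit2-IR replicate 1, the library with high atrial markers, the averaged IR difference was 0.80 for Pgf, 0.44 for Vegfa and -0.48 for Aplnr, against 0.71, 0.43 and -0.49 with all libraries.

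Across the 12 libraries, which share normalization and the IR contrast, Kdr varied most like Esm1 among the 10 genes (Pearson r = 0.81 of log2(FPKM + 1), n = 12), and Apln like both (r = 0.75 with Kdr and 0.73 with Esm1). Pgf varied like Angpt2 (r = 0.71) and opposite to Aplnr (r = -0.58), and Vegfa like Vegfb (r = 0.69). Angpt1 ran opposite to Kdr (r = -0.71). Over all tested genes, the closest to Pgf were Myd88, Cdkn1a and Errfi1 (r = 0.97, 0.97 and 0.96) and the closest to Vegfa were Aig1, Caprin2 and Dot1l (r = 0.89, 0.87 and 0.83). For Apln they were Tomm34, Nos2 and Cdipt (r = 0.97, 0.91 and 0.90), for Aplnr Fam122a, Podxl and Lrrc14 (r = 0.88, 0.88 and 0.88) and for Kdr Rasgrp3, Rmdn3 and Itpkb (r = 0.94, 0.91 and 0.91). Vegfb was closest to Mrpl4, Mdh2 and Rpl39 (r = 0.98, 0.97 and 0.96), Vegfc to A930005H10Rik, Gm12418 and Ckap2 (r = 0.92, 0.90 and 0.86) and Esm1 to Slc30a6, Aspm and Ppp2r5b (r = 0.91, 0.90 and 0.88). Angpt1 was closest to Sorcs2, Ghr and Cacna2d1 (r = 0.93, 0.93 and 0.92) and Angpt2 to Hnrnph3, Znrd1 and Srsf7 (r = 0.92, 0.92 and 0.91). These are descriptions of shared variation among the highest of 15240 genes.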

How the data were processed

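Total heart RNA was sequenced as 12 paired-end libraries by the authors. The submitters' processing notes name HISAT2 and mm10, while the counter, annotation release and use of strand are not given in the sources used here. The authors deposited an FPKM value per gene and library, with gene lengths as a further deposited column, and GRCm38 coordinates. Products of FPKM and gene length were whole multiples of 1 step per library for 100% of values, the steps followed median-of-ratios size factors (relative spread 3.55e-11), and the reads per gene were recovered from them. Within-group libraries were taken as replicates by label.

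Genes that reached 10 reads, at the depth of the median library, in 3 or more libraries and 15 reads over all libraries were tested on log2(FPKM + 1) with limma's moderated test and a variance trend in 1 fit of the 4 groups without covariates, with Benjamini-Hochberg adjustment over 15240 genes and a threshold of 0.05. For low genes, this scale makes fold changes too small. Single values were compared with exact permutation tests. On simulated data the fit recovered 200 of 200 genes changed 4-fold, with 19 false calls, among 15240 genes. The changed genes were drawn from those with more reads and were changed in the C57-IR group only, with 1 dispersion for all genes. The simulation therefore does not measure power for smaller differences, such as those of the 10 genes, or for genes with few reads, such as Esm1. Pairing was checked by correlating deviations from group means. All 3 same-numbered pairs exceeded 0.1 in Slit2-non-IR against Slit2-IR hearts (0.143 to 0.294) and C57-IR against Slit2-IR hearts (0.154 to 0.362). This was not so in C57-non-IR against C57-IR (lowest 0.0833) or Slit2-non-IR hearts (lowest 0.0377). No test set the line of 0.1, and different-numbered libraries were not compared. Every same-numbered correlation was above 0.

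The genes and lists were chosen with earlier results of these data known, so no list is independent evidence. Named were the 10 genes, up to 4 called genes per pathway list with the smallest p, and for each gene the 3 with the highest Pearson r. Alternatives were another pseudocount, filter, scaling, sample set, replicate block, prior variance, limma-voom, Pecam1 and Cdh5 alone as endothelial reference, and leaving out each library. The replicate block within only the 6 libraries compared was added after the data were seen. The fits used limma 3.58.1 in R 4.3.3; tables came from pandas 2.3.3 under Python 3.11.15 and figures from matplotlib 3.10.9.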

Additional observations from a re-analysis of the deposited data

How the results depend on the processing

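The count of the 10 genes at an adjusted p under 0.05 was 0 in each comparison and stayed 0 in the alternatives run, with 3 exceptions, all Pgf. With the replicate number as a block it was 1 with IR in Slit2-Tg hearts (limma adjusted p = 0.0205) and 1 with IR averaged over genotypes (adjusted p = 0.00291), and without C57-IR replicate 1 it was 1 in the average (adjusted p = 0.0273). Leaving out each library in turn thus gave 0 to 1 called genes averaged over genotypes and 0 to 0 elsewhere. The replicate block changed no other adjusted call of the 10 genes, but it raised the counts at an unadjusted p under 0.05. They went from 0 to 2 in C57BL/6J hearts (Aplnr and Pgf) and from 2 to 5 in Slit2-Tg hearts. In the average they went from 2 to 4 (Aplnr, Esm1, Pgf and Vegfa). The block also raised the unadjusted counts over all tested genes. In C57BL/6J hearts 855 were higher and 824 lower, against 693 and 673 without it. In Slit2-Tg hearts the counts were 1196 and 898, against 937 and 772. In the average they were 1440 and 1375, against 1208 and 1214. The 2 unadjusted calls in C57BL/6J hearts, Aplnr and Pgf, also arose without a block when only the 6 C57BL/6J libraries were fitted. Between genotypes, Apln after IR and Vegfa averaged over IR had an unadjusted p under 0.05 in 1 alternative each. Of 70 gene and comparison differences, 40 changed sign in an alternative, and 0 of these had an unadjusted p under 0.05. Over all tested genes the called counts with IR moved more, from 532 to between 299 and 773 in the average, from 70 to between 3 and 254 in C57BL/6J hearts and from 80 to between 4 and 202 in Slit2-Tg hearts. Rescaling to non-mitochondrial reads turned the split of higher and lower calls in the average from 356 and 176 to 277 and 305. The Slit2-Tg counts ranged from 1 to 14 without IR, 1 to 12 after IR and 8 to 30 averaged, against 6, 7 and 20, and the interaction from 0 to 4, against 0. Depth limits Esm1 most, at 10 to 68 reads per library.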
